A study of Mus musculus with 19 samples.

Results

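The genes described here are those of red blood cell formation (erythropoiesis) and of haem synthesis, measured in whole mouse spleens. A list of 44 gene symbols defined them, and a gene was measured where a probe set of the array was annotated to that symbol and to no other. By this rule 41 of the 44 were measured, among 22180 genes with such a probe set. Alas2, the erythroid form of the enzyme that opens the haem pathway, was listed only on a probe set shared with other symbols, and with Epb41 and Ahsp, which the annotation used here did not pair with a probe set, it was not analysed here. Ank1 had more than 1 probe set, and the brighter of them, by its mean over the 19 arrays, was used. Total RNA from the whole spleens of 19 mice was hybridised to Affymetrix arrays, 1 array per animal. In 16 of the mice a conditional allele at the Rosa26 locus (Rosa26-HGAL) carried HGAL, a human signalling adaptor of germinal centre B cells, together with a Cre recombinase transgene. There were 4 tumour-bearing spleens of Rosa26-HGAL+Aid-Cre mice (Aid-Cre tumour), 5 of Rosa26-HGAL+Mb1-Cre mice (Mb1-Cre tumour), 4 of Rosa26-HGAL+Sca1-Cre mice (Sca1-Cre tumour), 3 spleens of Rosa26-HGAL+Sca1-Cre mice taken before tumours (Sca1-Cre pre-tumour) and 3 spleens of wild-type mice. The drivers carry the names of Aid, an enzyme of germinal centre B cells, of mb-1, a signalling component of the B cell receptor, and of Sca1, a surface protein of blood stem and progenitor cells. The labels give no age. The animals were kept in a conventional facility and met common pathogens, per the labels, and the last group is labelled only as wild type, with no strain named.

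In mice the spleen, beside the bone marrow, makes red blood cells, and it makes more of them when demand is high. Erythropoietin keeps erythroid progenitors alive through its receptor. The transcription factors Gata1, Tal1 and Klf1 then switch on the genes for globin, for the red cell membrane and its skeleton, and for haem synthesis, in which a chain of enzymes builds a porphyrin ring and places an iron atom in it. Iron enters the cell through transferrin receptors and the mitochondrion through mitoferrin. Whole spleen also holds B cells, T cells, granulocytes and macrophages, so that fewer erythroid cells and less RNA of these genes per cell cannot be told apart in these arrays.

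All values are log2 expression as deposited, on which a difference of 1 is a doubling. Arrays are numbered by the replicate numbers of their labels. The medians of the arrays lay between 5.23 and 5.40, and B cell markers were high in the wild-type spleens (list means of 10.6 to 11.1 over 11 measured markers). Transcripts of the exocrine pancreas were highest in Mb1-Cre tumour 2 and wild type 2, with list means of 2.52 and 0.73 relative to the wild-type mean, which wild type 2 itself raises. Pre-tumour spleens 1 to 3 were at 0.32, 0.09 and -0.17, also above wild types 1 and 3 (-0.43 and -0.29), and the other 12 tumour arrays lay between -0.50 and -0.27. Medians without Mb1-Cre tumour 2 and wild type 2 are given further on for pre-tumour, Aid-Cre, Mb1-Cre and all tumours, each minus wild type. The test of spread is also given without these arrays.

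The 41 genes were high together in some spleens and low together in others, within the tumour groups as well as between groups. The median of the 41 genes, each set against its own mean in wild type, was 0.88, 1.07, -1.75 and -0.80 in Aid-Cre tumours 1 to 4. In Mb1-Cre tumours 1 to 5 it was -2.09, -0.03, 0.96, 1.30 and 1.01, and in Sca1-Cre tumours 1 to 4 it was -1.70, 0.38, -0.04 and -1.49. Pre-tumour spleens 1 to 3 were at -2.27, -1.58 and -0.88, against 0.06, -0.43 and 0.39 in wild-type spleens 1 to 3. Each tumour group thus held spleens above and spleens below the wild-type mean, while the 3 pre-tumour spleens were all below. The same picture held gene by gene: in Aid-Cre tumour 2, 40 of the 41 genes were above all 3 wild-type arrays, and in Aid-Cre tumour 3, 40 were below all 3. Over all genes, 34.5% were above the wild-type range in Aid-Cre tumour 2 and 26.7% below it in Aid-Cre tumour 3. In Sca1-Cre tumour 4 all 41 genes were below the wild-type range, where 33.7% of all genes were.

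**Figure D1:**
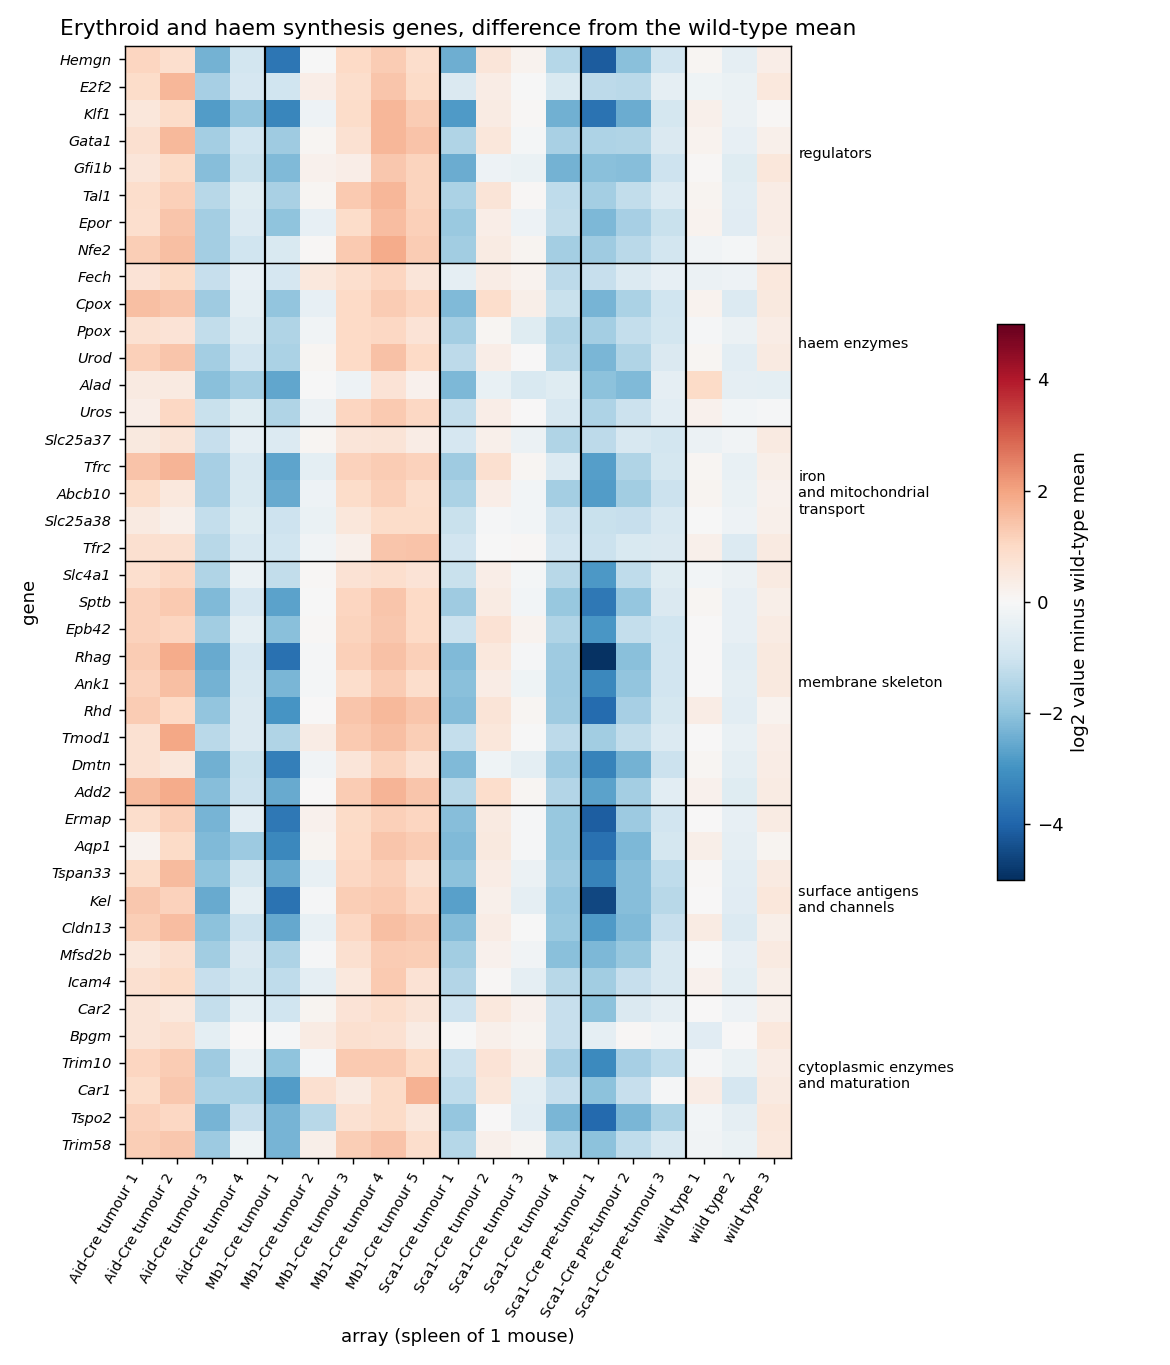
Difference of each log2 value from the gene's wild-type mean, for the 41 measured genes (rows, by role) in the 19 arrays (columns, by group, wild type at the right). Blue is lower and red is higher than the wild-type mean. Many columns are nearly all of 1 colour. Aid-Cre tumours 1 and 2 and Mb1-Cre tumours 3, 4 and 5 are red but for Alad in Mb1-Cre tumour 3. Aid-Cre tumours 3 and 4, Mb1-Cre tumour 1, Sca1-Cre tumours 1 and 4 and the pre-tumour arrays are all or nearly all blue.

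The order of the spleens inside a group was nearly the same for every gene. Among Aid-Cre tumours, 27 genes had the order 2, 1, 4, 3 (highest first) and 13 the order 1, 2, 4, 3. Car1, a carbonic anhydrase, was the exception. Among Mb1-Cre tumours, 21 genes followed the order 4, 3, 5, 2, 1 and 15 the order 4, 5, 3, 2, 1, and array 1 was the lowest for all 41. Among Sca1-Cre tumours, 22 genes followed the order 2, 3, 4, 1 and 17 the order 2, 3, 1, 4. Pre-tumour arrays followed the order 3, 2, 1 for 35 genes, and wild-type arrays the order 3, 1, 2 for 31. Over all 19 arrays the highest value fell in Mb1-Cre tumour 4 for 23 genes and in Aid-Cre tumour 2 for 11, and the lowest in pre-tumour 1 for 28.

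These genes were among the most variable on the array. Their standard deviation (SD) over the 19 arrays had a median of 1.23, against 0.19 for all genes, and ran from 0.53 for Bpgm to 1.86 for Rhag. Of the 100 most variable genes of the whole array 17 were in the list, and of the 1000 most variable 40 were. The list was chosen with earlier results of these data known, so these ranks describe the genes and test nothing. By role, the median SD was 1.49 for surface antigens and channels, 1.43 for membrane and skeleton proteins, 1.24 for cytoplasmic enzymes and maturation factors, 1.22 for regulators, 1.03 for haem enzymes and 0.85 for iron and mitochondrial transport. The genes lie on 17 chromosomes, with at most 8 on one.

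Among the 8 regulators, Klf1, the erythroid Krüppel-like factor that activates globin and membrane genes, varied most. Its log2 values were 9.41, 9.78, 6.08 and 6.89 in the Aid-Cre tumour arrays, 5.6, 8.61, 9.77, 10.52 and 10.12 in the Mb1-Cre tumour arrays, 6.04, 9.28, 8.9 and 6.47 in the Sca1-Cre tumour arrays, 5.16, 6.39 and 7.96 in the pre-tumour arrays and 9.1, 8.55 and 8.93 in the wild-type arrays. Wild-type arrays lay close together, while each tumour group held arrays above and far below them. Hemgn, a nuclear protein of blood progenitors, was at 11.23, 11.01, 7.81 and 9.23 in the Aid-Cre tumour arrays, 6.54, 10.14, 11.15, 11.42 and 11.05 in the Mb1-Cre tumour arrays, 7.74, 10.78, 10.33 and 8.73 in the Sca1-Cre tumour arrays, 6.0, 8.07 and 9.19 in the pre-tumour arrays and 10.27, 9.7 and 10.51 in the wild-type arrays. For E2f2, a cell cycle transcription factor of maturing erythroblasts, the values were 9.69, 10.46, 7.12 and 7.94 in the Aid-Cre tumour arrays, 7.77, 9.1, 9.65, 10.15 and 9.76 in the Mb1-Cre tumour arrays, 8.06, 9.16, 8.77 and 8.0 in the Sca1-Cre tumour arrays, 7.48, 7.44 and 8.33 in the pre-tumour arrays and 8.57, 8.46 and 9.31 in the wild-type arrays. The pre-tumour values of all 3 genes lay below the wild-type values without overlap, as did those of 8.49% of all genes. Gata1, Tal1, Gfi1b (a repressor of the erythroid and platelet lineages), Nfe2 (a subunit of a factor that binds globin enhancers) and Epor, the erythropoietin receptor, spanned between 3.37 (Tal1) and 3.82 (Gfi1b) log2 units from the lowest to the highest array.

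**Figure D2:**
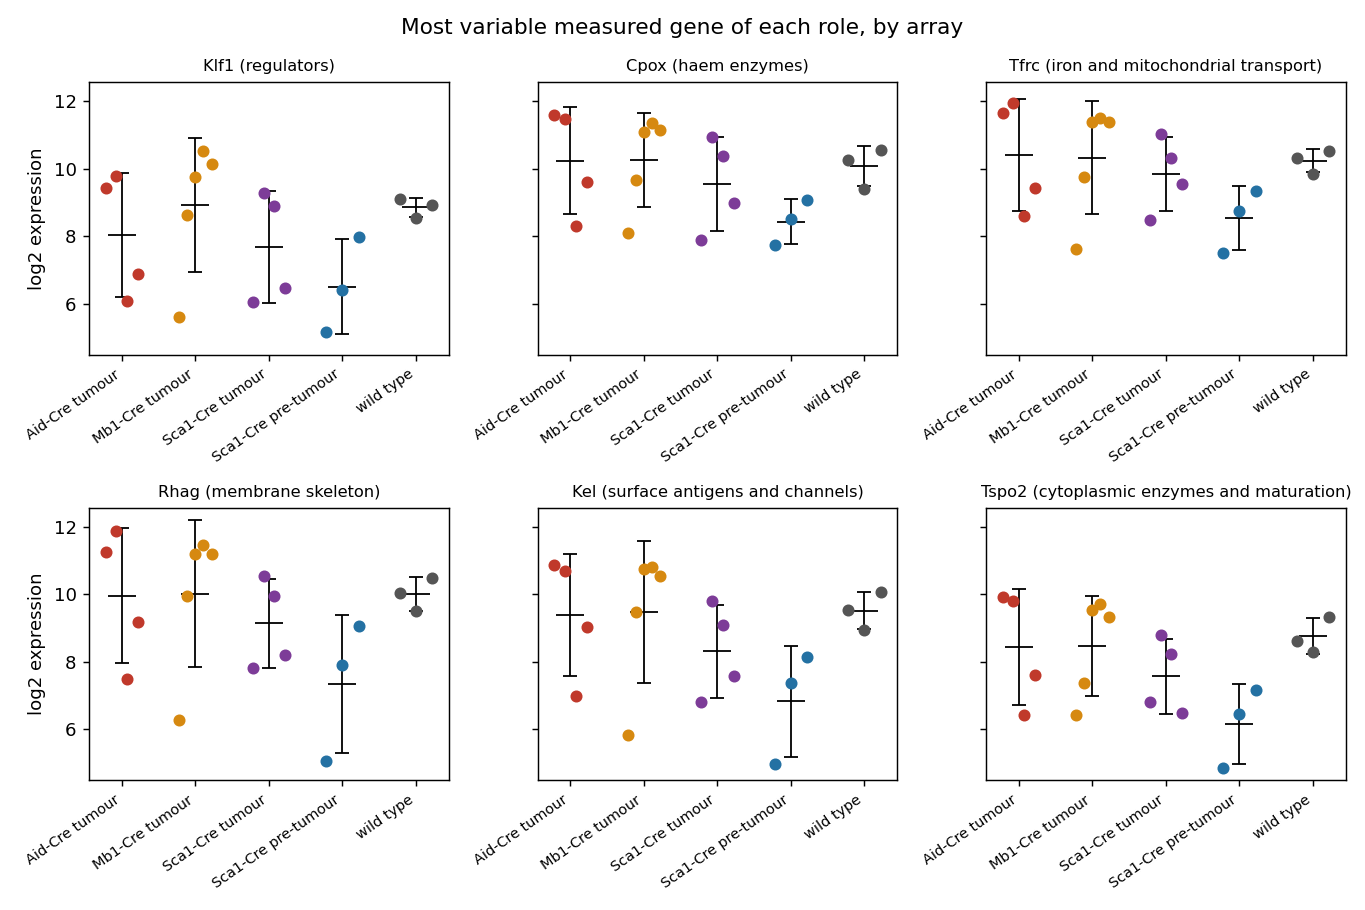
Log2 expression by array of the measured gene with the largest SD over the 19 arrays in each of 6 roles, by group with wild type at the right. Points are arrays, and bars give the group mean with the SD (n = 4, 5, 4, 3 and 3 from left to right). In all 6 genes the Aid-Cre and Mb1-Cre tumours have points above and below all wild-type points, and the pre-tumour points lie below them. Over all genes, 8.49% had all pre-tumour values below all wild-type values.

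Haem enzymes followed the same spleens. Fech, ferrochelatase, which inserts iron into the porphyrin ring as the last step, measured 12.04, 12.3, 10.2 and 10.92 in the Aid-Cre tumour arrays, 10.52, 11.88, 12.18, 12.42 and 11.95 in the Mb1-Cre tumour arrays, 10.87, 11.73, 11.51 and 10.02 in the Sca1-Cre tumour arrays, 10.17, 10.67 and 10.94 in the pre-tumour arrays and 11.06, 11.09 and 11.87 in the wild-type arrays. Cpox, coproporphyrinogen oxidase, measured 11.6, 11.46, 8.3 and 9.6 in the Aid-Cre tumour arrays, 8.09, 9.66, 11.07, 11.35 and 11.15 in the Mb1-Cre tumour arrays, 7.88, 10.94, 10.38 and 8.98 in the Sca1-Cre tumour arrays, 7.73, 8.5 and 9.07 in the pre-tumour arrays and 10.27, 9.41 and 10.55 in the wild-type arrays. Ppox, protoporphyrinogen oxidase, measured 10.39, 10.29, 8.39 and 8.99 in the Aid-Cre tumour arrays, 8.1, 9.43, 10.61, 10.64 and 10.3 in the Mb1-Cre tumour arrays, 7.91, 9.72, 9.0 and 8.13 in the Sca1-Cre tumour arrays, 7.93, 8.42 and 8.68 in the pre-tumour arrays and 9.54, 9.34 and 9.98 in the wild-type arrays. Cpox spanned 3.86 log2 units, a 14.6-fold range, and Fech 2.40 units, a 5.29-fold range. The earlier enzymes of the chain, Alad, Uros and Urod, spanned 3.55, 2.85 and 3.72 units. Alad, which joins the first precursors, was the only gene of the list with its lowest wild-type value in array 3 (9.17). Its wild-type arrays 1 and 2 were at 10.60 and 9.19, and array 1 was also the highest for Uros.

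Genes of iron uptake and mitochondrial transport include those that supply ferrochelatase with iron. Tfrc, transferrin receptor 1, through which iron enters the cell, had values of 11.65, 11.96, 8.59 and 9.42 in the Aid-Cre tumour arrays, 7.62, 9.75, 11.39, 11.51 and 11.38 in the Mb1-Cre tumour arrays, 8.47, 11.03, 10.32 and 9.55 in the Sca1-Cre tumour arrays, 7.49, 8.75 and 9.34 in the pre-tumour arrays and 10.33, 9.85 and 10.54 in the wild-type arrays. Slc25a37, mitoferrin 1, which carries iron into the mitochondrion, had values of 12.69, 12.84, 11.08 and 11.75 in the Aid-Cre tumour arrays, 11.52, 12.31, 12.81, 12.88 and 12.59 in the Mb1-Cre tumour arrays, 11.36, 12.47, 11.94 and 10.7 in the Sca1-Cre tumour arrays, 10.9, 11.42 and 11.29 in the pre-tumour arrays and 11.94, 12.05 and 12.66 in the wild-type arrays. Abcb10, a transporter of the inner mitochondrial membrane, had values of 10.64, 10.22, 8.04 and 8.95 in the Aid-Cre tumour arrays, 7.17, 9.46, 10.64, 10.92 and 10.6 in the Mb1-Cre tumour arrays, 8.12, 10.04, 9.59 and 8.02 in the Sca1-Cre tumour arrays, 6.91, 7.98 and 8.63 in the pre-tumour arrays and 9.85, 9.37 and 9.91 in the wild-type arrays. From the lowest to the highest array Tfrc changed 22.1-fold, Abcb10 16.1-fold and Slc25a37 4.54-fold. Slc25a38, which carries glycine for haem synthesis, and Tfr2, transferrin receptor 2, spanned 2.10 and 2.82 log2 units.

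Proteins of the red cell membrane and its skeleton included the widest range of the list. Rhag, the Rh-associated glycoprotein, an ammonia and gas channel of the membrane, had values of 11.27, 11.87, 7.5 and 9.18 in the Aid-Cre tumour arrays, 6.27, 9.95, 11.2, 11.46 and 11.2 in the Mb1-Cre tumour arrays, 7.82, 10.56, 9.96 and 8.22 in the Sca1-Cre tumour arrays, 5.08, 7.92 and 9.06 in the pre-tumour arrays and 10.05, 9.5 and 10.49 in the wild-type arrays. The lowest and the highest of these arrays, pre-tumour 1 and Aid-Cre tumour 2, differed 111-fold. Slc4a1, band 3, the anion exchanger that anchors the skeleton, had values of 12.69, 12.89, 10.36 and 11.53 in the Aid-Cre tumour arrays, 10.62, 11.9, 12.58, 12.71 and 12.54 in the Mb1-Cre tumour arrays, 10.74, 12.21, 11.77 and 10.49 in the Sca1-Cre tumour arrays, 9.0, 10.6 and 11.26 in the pre-tumour arrays and 11.71, 11.58 and 12.29 in the wild-type arrays. Sptb, erythroid beta spectrin, had values of 11.27, 11.45, 7.9 and 9.3 in the Aid-Cre tumour arrays, 7.46, 10.09, 11.19, 11.51 and 11.13 in the Mb1-Cre tumour arrays, 8.34, 10.54, 9.999 and 8.23 in the Sca1-Cre tumour arrays, 6.53, 8.18 and 9.39 in the pre-tumour arrays and 10.22, 9.73 and 10.42 in the wild-type arrays. Epb42, protein 4.2, which ties band 3 to ankyrin, had values of 10.96, 10.87, 8.05 and 9.3 in the Aid-Cre tumour arrays, 7.71, 9.86, 10.92, 11.17 and 10.8 in the Mb1-Cre tumour arrays, 8.72, 10.51, 9.98 and 8.31 in the Sca1-Cre tumour arrays, 6.88, 8.62 and 8.82 in the pre-tumour arrays and 9.81, 9.38 and 10.21 in the wild-type arrays. In all 4 genes Mb1-Cre tumour 1 and pre-tumour 1 were the lowest arrays of their groups. The other measured members of this role, Ank1 (ankyrin), Add2 (beta adducin), Dmtn (dematin), Tmod1 (tropomodulin) and Rhd (the Rh blood group protein), spanned between 3.66 (Tmod1) and 5.48 (Rhd) log2 units.

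Blood group antigens and channels of the surface showed the largest median SD of the 6 roles. Kel, the Kell blood group protein, an endopeptidase, had values of 10.87, 10.68, 7.0 and 9.03 in the Aid-Cre tumour arrays, 5.83, 9.48, 10.75, 10.82 and 10.54 in the Mb1-Cre tumour arrays, 6.8, 9.79, 9.08 and 7.58 in the Sca1-Cre tumour arrays, 4.98, 7.38 and 8.14 in the pre-tumour arrays and 9.54, 8.96 and 10.07 in the wild-type arrays. Ermap, the Scianna blood group protein, had values of 11.35, 11.69, 8.15 and 9.96 in the Aid-Cre tumour arrays, 6.91, 10.71, 11.44, 11.66 and 11.55 in the Mb1-Cre tumour arrays, 8.35, 10.94, 10.44 and 8.59 in the Sca1-Cre tumour arrays, 6.36, 8.66 and 9.53 in the pre-tumour arrays and 10.51, 10.05 and 10.88 in the wild-type arrays. Ermap in Mb1-Cre tumour 1 (6.91) stood well below the next array of its group (10.71). Aqp1, a water channel of the red cell, measured 9.74, 10.52, 7.39 and 7.78 in the Aid-Cre tumour arrays, 6.36, 9.72, 10.59, 10.98 and 10.87 in the Mb1-Cre tumour arrays, 7.38, 10.07, 9.52 and 7.71 in the Sca1-Cre tumour arrays, 5.85, 7.32 and 8.71 in the pre-tumour arrays and 9.89, 9.12 and 9.74 in the wild-type arrays. Tspan33, a tetraspanin of erythroid progenitors, measured 10.36, 11.03, 7.43 and 8.54 in the Aid-Cre tumour arrays, 6.94, 9.06, 10.48, 10.65 and 10.23 in the Mb1-Cre tumour arrays, 7.39, 9.82, 9.16 and 7.66 in the Sca1-Cre tumour arrays, 6.09, 7.31 and 8.16 in the pre-tumour arrays and 9.5, 8.92 and 9.9 in the wild-type arrays. Aqp1 in Aid-Cre tumour 1 was inside the wild-type range, although most other genes of the list were above it there. Icam4 (the LW blood group adhesion protein), Cldn13 (a claudin), and Mfsd2b (the sphingosine-1-phosphate exporter of red cells) spanned 3.02, 4.41 and 3.52 log2 units.

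Cytoplasmic enzymes and maturation factors held both wide and narrow ranges. Tspo2, an erythroid member of the translocator protein family, had values of 9.92, 9.8, 6.42 and 7.6 in the Aid-Cre tumour arrays, 6.44, 7.39, 9.52, 9.72 and 9.34 in the Mb1-Cre tumour arrays, 6.81, 8.79, 8.23 and 6.48 in the Sca1-Cre tumour arrays, 4.86, 6.46 and 7.17 in the pre-tumour arrays and 8.62, 8.3 and 9.34 in the wild-type arrays. Trim10, a RING finger protein needed for terminal erythroid differentiation, had values of 10.97, 11.13, 8.1 and 9.52 in the Aid-Cre tumour arrays, 7.88, 9.82, 11.18, 11.2 and 10.83 in the Mb1-Cre tumour arrays, 8.81, 10.55, 10.17 and 8.22 in the Sca1-Cre tumour arrays, 6.7, 8.23 and 8.6 in the pre-tumour arrays and 9.81, 9.57 and 10.26 in the wild-type arrays. The pre-tumour arrays of both genes lay below their wild-type arrays without overlap, as they did in 8.49% of all genes. Car2, carbonic anhydrase 2, measured 12.73, 12.62, 10.88 and 11.58 in the Aid-Cre tumour arrays, 11.09, 12.2, 12.75, 12.94 and 12.74 in the Mb1-Cre tumour arrays, 11.04, 12.62, 12.3 and 10.93 in the Sca1-Cre tumour arrays, 10.04, 11.36 and 11.63 in the pre-tumour arrays and 12.08, 11.81 and 12.35 in the wild-type arrays. Bpgm, bisphosphoglycerate mutase, which makes the ligand that lowers the oxygen affinity of haemoglobin, measured 10.67, 10.82, 9.53 and 10.05 in the Aid-Cre tumour arrays, 9.96, 10.42, 10.82, 10.79 and 10.42 in the Mb1-Cre tumour arrays, 10.01, 10.28, 10.15 and 8.85 in the Sca1-Cre tumour arrays, 9.55, 10.08 and 9.9 in the pre-tumour arrays and 9.44, 10.05 and 10.55 in the wild-type arrays. Bpgm had the smallest span of the list, 1.98 log2 units, and its pre-tumour and wild-type arrays overlapped. Car1 and Trim58, a ubiquitin ligase that acts before the nucleus is expelled, spanned 4.51 and 3.74 log2 units.

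Before tumours, Rosa26-HGAL+Sca1-Cre spleens had lower mean levels of all 41 genes than wild-type spleens, but no gene passed the test. The median difference over the genes was -1.64 log2 units, against 0.01 over all 22180 genes, and it ran from -2.69 (Kel) to -0.18 (Bpgm). In 37 of the 41 genes all 3 pre-tumour arrays lay below all 3 wild-type arrays, where 8.49% of all genes did so. The exceptions were Alad, Add2, Car1 and Bpgm. By limma with Benjamini-Hochberg adjustment over all genes, 0 of 41 passed an adjusted p of 0.05 and 8 had an unadjusted p below 0.05, and of all genes 0.00451% passed and 5.47% had such an unadjusted p. Tspo2 averaged 6.16 in pre-tumour spleens and 8.76 in wild-type spleens (n = 3 each), a difference of -2.59 ± 1.00 (SE, limma adjusted p = 0.857). This SE, like the others given with limma, rests on the spread within all 5 groups, not on the compared groups alone. Trim10 differed by -2.04 ± 0.90 (limma adjusted p = 0.883) and Tspan33 by -2.26 ± 1.00 (limma adjusted p = 0.883). The other genes with an unadjusted p below 0.05 were Slc4a1, Dmtn, Slc25a37, Abcb10 and Kel. By role the median difference was -2.26 for surface antigens and channels, -2.06 for membrane and skeleton proteins, -1.51 for regulators, -1.38 for haem enzymes, -1.23 for cytoplasmic enzymes and maturation factors and -1.02 for iron and mitochondrial transport. Leaving out pre-tumour 1, the lowest array, moved the median over the genes to -1.19.

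**Figure D3:**
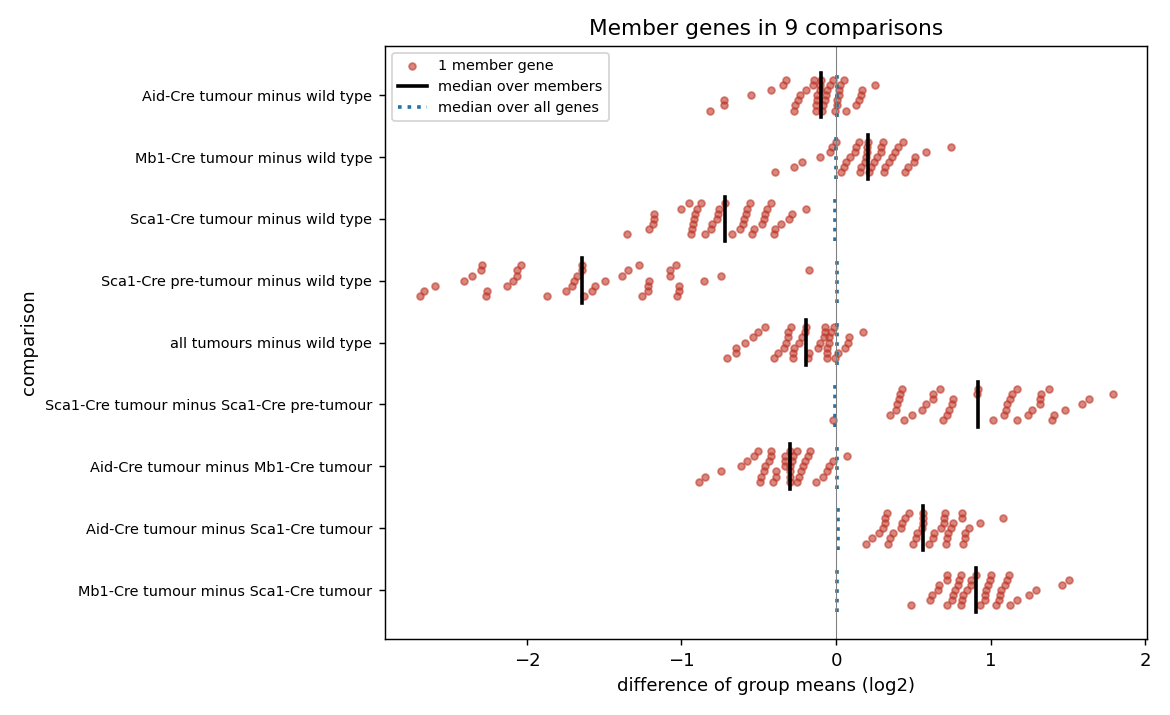
Difference of group means (log2) in 9 comparisons, 1 point per measured gene, with the median over the 41 genes (solid line) and over all 22180 genes (dotted line). All 41 points are below 0 in Sca1-Cre pre-tumour minus wild type and in Sca1-Cre tumour minus wild type, and all are above 0 in the Aid-Cre and Mb1-Cre tumours minus Sca1-Cre tumour, yet none passed the test.

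In Sca1-Cre tumours, too, all 41 genes had lower means than in wild type, by a median of -0.72 (-0.38 without Sca1-Cre tumour 1), from -1.35 (Gfi1b) to -0.19 (Bpgm). By limma 0 of 41 passed, with 0 at an unadjusted p below 0.05 against 0.0406% of all genes passing and 11.4% with such an unadjusted p. The smallest p-values belonged to Gfi1b (-1.35 ± 0.85, SE, limma adjusted p = 0.591), Ppox (-0.93 ± 0.60, limma adjusted p = 0.607) and Slc25a37 (-0.60 ± 0.44, limma adjusted p = 0.665). Against pre-tumour spleens of the same genotype, Sca1-Cre tumours had higher means in 40 of 41 genes, all but Bpgm, by a median of 0.92 (0.49 without pre-tumour 1). No gene passed in limma, with 0 at an unadjusted p below 0.05, against 0% of all genes passing and 5.34% with such an unadjusted p. Trim10 averaged 9.44 in Sca1-Cre tumours and 7.85 in pre-tumour spleens (1.59 ± 0.84, SE, limma adjusted p = 0.851). Slc4a1 (1.02 ± 0.66) and Epb42 (1.27 ± 0.84) followed, both with a limma adjusted p of 0.851. These comparisons share the pre-tumour or the wild-type arrays with each other.

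Aid-Cre and Mb1-Cre tumours had group means close to those of wild type, with spleens on both sides of it. In Aid-Cre tumours 12 genes were higher and 29 lower in mean than in wild type, with a median of -0.10. In limma 0 of 41 passed and 0 had an unadjusted p below 0.05, against 0.018% and 8.3% of all genes. Alad (-0.73 ± 0.79), Klf1 (-0.82 ± 1.17) and Bpgm (0.25 ± 0.36) had the smallest p-values (log2 differences with SE, limma adjusted p = 0.855, 0.901 and 0.902). The sign of that median rested on single arrays: it was 0.50 without Aid-Cre tumour 3, 0.12 without Aid-Cre tumour 4 and 0.08 without wild type 3. In Mb1-Cre tumours 34 genes were higher and 7 lower, with a median of 0.20. There 0 of 41 passed in limma and 0 had an unadjusted p below 0.05, against 0% and 11.3% of all genes. Bpgm (0.47 ± 0.35), Nfe2 (0.75 ± 0.74) and Fech (0.45 ± 0.50) had the smallest p-values (limma adjusted p = 0.622, 0.722 and 0.753). Without Mb1-Cre tumour 1 the median was 0.81, and without Mb1-Cre tumour 4 it was -0.01. Over the 3 tumour groups, weighted equally, 5 genes were higher and 36 lower than in wild type, with a median of -0.19, or 0.01 without Mb1-Cre tumour 1. By limma 0 of 41 passed and 0 had an unadjusted p below 0.05, against 0.018% and 8.93% of all genes. Alad (-0.71 ± 0.66), Dmtn (-0.65 ± 0.81) and Gfi1b (-0.54 ± 0.71) had the smallest p-values there (limma adjusted p = 0.78, 0.845 and 0.859).

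Between tumour groups, Sca1-Cre tumours had the lowest means of all 41 genes. Mb1-Cre tumours exceeded Sca1-Cre tumours by a median of 0.91, and 0 of 41 passed in limma, with 2 at an unadjusted p below 0.05, against 0.0406% of all genes passing and 17.6% with such an unadjusted p. Nfe2 averaged 7.72 in the Mb1-Cre against 6.25 in the Sca1-Cre tumour spleens (1.46 ± 0.68, SE, limma adjusted p = 0.278), and Ppox averaged 9.82 in the Mb1-Cre against 8.69 in the Sca1-Cre tumour spleens (1.13 ± 0.53, limma adjusted p = 0.282). Bpgm differed by 0.66 ± 0.32 (limma adjusted p = 0.292). Aid-Cre tumours exceeded Sca1-Cre tumours by a median of 0.57, with 0 of 41 passing in limma, and 0 at an unadjusted p below 0.05, against 0.0451% and 13.6% of all genes. Ppox (0.82 ± 0.56), Bpgm (0.45 ± 0.33) and Icam4 (0.74 ± 0.56) had the smallest p-values there (limma adjusted p = 0.533, 0.583 and 0.585). Aid-Cre tumours were below Mb1-Cre tumours in 40 of 41 genes, all but Tfrc, by a median of -0.30, which was 0.14 without Aid-Cre tumour 3. In limma 0 of 41 passed and 0 had an unadjusted p below 0.05, against 0.0451% and 8.76% of all genes. Slc25a38 (-0.46 ± 0.41), Nfe2 (-0.74 ± 0.68) and Tfr2 (-0.53 ± 0.52) had the smallest p-values (limma adjusted p = 0.791, 0.798 and 0.813). A moderated F-test over the 5 groups also passed 0 of 41 genes, with 0 at an unadjusted p below 0.05, against 0.0451% and 15.2% of all genes. Its smallest p-values belonged to Slc25a37, Mfsd2b and Ppox (limma adjusted p = 0.364, 0.383 and 0.386).

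The spread of these genes within a group was larger in tumour groups than in wild type. The median SD over the 41 genes was 1.49 in Aid-Cre tumours (n = 4), 1.41 in Mb1-Cre tumours (n = 5), 1.07 in Sca1-Cre tumours (n = 4) and 0.87 in pre-tumour spleens (n = 3), against 0.44 in wild-type spleens (n = 3). Over all genes the median SD was 0.18, 0.17, 0.16 and 0.12 in these groups and 0.14 in wild type. In the tumour groups 39, 39 and 38 of the 41 genes had an SD above the 95th percentile of all genes, as did 37 in pre-tumour and 27 in wild-type spleens. In 39 of the 41 genes each of the 3 tumour groups had a larger SD than wild type, as did 41% of all genes. The exceptions were Tfr2 and Bpgm. In 25 of the 41 genes each tumour group had a larger SD than both pre-tumour and wild-type spleens, as did 25.4% of all genes.

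**Figure D4:**
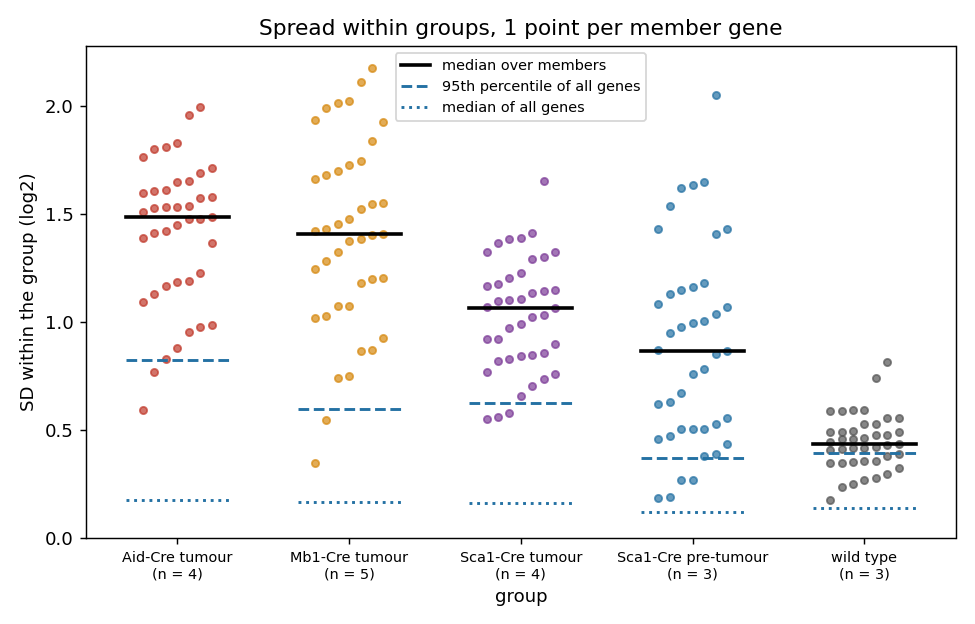
SD of the log2 values within each group, 1 point per measured gene, with the median over the 41 genes (solid line) and the median and 95th percentile over all genes (dotted and dashed lines). The solid line lies at 1.49, 1.41 and 1.07 in the tumour groups, at 0.87 in pre-tumour spleens and at 0.44 in wild type.

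This spread was tested by limma on the absolute deviations from the group means, tumour groups minus pre-tumour and wild-type groups. All 41 genes had a larger mean deviation in tumours, by a median of 0.57, against 0.03 over all genes. Of the 41, 1 passed an adjusted p of 0.05 and 24 had an unadjusted p below 0.05, against 0.379% and 18.2% of all genes. The gene that passed was Nfe2. Its values were 8.2, 8.47, 5.27 and 5.96 in the Aid-Cre tumour arrays, 6.2, 7.03, 8.27, 8.84 and 8.24 in the Mb1-Cre tumour arrays, 5.25, 7.38, 7.11 and 5.28 in the Sca1-Cre tumour arrays, 5.2, 5.61 and 6.07 in the pre-tumour arrays and 6.78, 6.87 and 7.25 in the wild-type arrays. Its mean absolute deviation was 1.23 in tumours and 0.30 in pre-tumour and wild-type spleens (0.94 ± 0.15, SE, limma adjusted p = 0.0185). The call was lost (limma adjusted p between 0.0599 and 0.195) when Aid-Cre tumour 1, 2, 3 or 4, Mb1-Cre tumour 2, or Sca1-Cre tumour 1, 2, 3 or 4 was left out. It was also lost without both arrays with the highest pancreatic list means, Mb1-Cre tumour 2 and wild type 2 (limma adjusted p = 0.0609). Slc25a38 (0.70 in tumours, 0.19 in the other spleens, limma adjusted p = 0.0597) and Icam4 (0.90 in tumours, 0.41 in the other spleens, limma adjusted p = 0.122) came next. By role, 7 of 8 regulators, 5 of 5 genes of iron and mitochondrial transport, 4 of 6 haem enzymes, 4 of 7 surface antigens and channels, 3 of 9 membrane and skeleton genes and 1 of 6 cytoplasmic enzymes and maturation factors had an unadjusted p below 0.05.

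The DNA just before the promoter starts is shown for the 6 most variable genes that the RefSeq promoter table (build GRCm38.p6) holds. Whether these sequences have a part in the shared pattern was not tested. Each is the 250 bases before the start annotated for the promoter, read 5′ to 3′ on the strand of the gene. The RefSeq gene extents place the start inside the window for Rhag (chr17:40811099), Kel (chr6:41704334) and Ermap (chr4:119190013). By those extents the marked match of Rhag lies after the start. Capitals mark, on either strand, the motif AGATAA, its variant beginning with T (TGATAA) and the variants of both that end in G (AGATAG or else TGATAG), forms of the sequence that GATA factors such as Gata1 bind.
Rhag: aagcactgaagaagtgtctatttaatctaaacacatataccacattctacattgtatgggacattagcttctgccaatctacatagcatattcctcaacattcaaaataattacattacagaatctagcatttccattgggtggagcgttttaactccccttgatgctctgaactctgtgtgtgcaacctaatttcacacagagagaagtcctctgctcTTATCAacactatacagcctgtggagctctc
Kel: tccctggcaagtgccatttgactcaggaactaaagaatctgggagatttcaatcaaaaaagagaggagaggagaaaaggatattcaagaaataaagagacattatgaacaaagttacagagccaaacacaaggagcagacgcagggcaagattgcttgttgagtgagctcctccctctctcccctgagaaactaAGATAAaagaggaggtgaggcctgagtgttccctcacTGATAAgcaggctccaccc
Klf1: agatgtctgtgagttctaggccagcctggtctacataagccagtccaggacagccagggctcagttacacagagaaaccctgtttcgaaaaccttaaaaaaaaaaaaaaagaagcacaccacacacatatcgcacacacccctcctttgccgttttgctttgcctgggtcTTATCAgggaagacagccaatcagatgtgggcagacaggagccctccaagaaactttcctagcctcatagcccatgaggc
Hemgn: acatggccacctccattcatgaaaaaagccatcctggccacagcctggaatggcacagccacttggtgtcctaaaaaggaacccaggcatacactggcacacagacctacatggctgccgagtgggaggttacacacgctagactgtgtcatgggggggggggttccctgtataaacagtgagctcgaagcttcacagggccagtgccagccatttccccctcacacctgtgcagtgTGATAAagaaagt
Ermap: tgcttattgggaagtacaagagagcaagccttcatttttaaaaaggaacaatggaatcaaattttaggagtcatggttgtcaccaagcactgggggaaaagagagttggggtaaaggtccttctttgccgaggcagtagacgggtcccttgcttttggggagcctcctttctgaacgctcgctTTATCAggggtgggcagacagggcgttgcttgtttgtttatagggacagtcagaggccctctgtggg
Rhd: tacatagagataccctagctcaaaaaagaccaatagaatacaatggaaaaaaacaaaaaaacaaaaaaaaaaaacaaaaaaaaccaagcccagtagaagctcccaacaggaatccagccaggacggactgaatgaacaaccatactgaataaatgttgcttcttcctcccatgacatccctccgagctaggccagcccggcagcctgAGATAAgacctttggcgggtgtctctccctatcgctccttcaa
The window of Rhag lies at chr17:40810899-40811148 on the plus strand, Kel at chr6:41704326-41704575 on the minus strand and Klf1 at chr8:84901732-84901981 on the plus strand. That of Hemgn lies at chr4:46404184-46404433 on the minus strand, Ermap at chr4:119189996-119190245 on the minus strand and Rhd at chr4:134864286-134864535 on the plus strand. All 6 windows held a match, and Kel had 2. The matches began between 13 (Hemgn) and 80 (Klf1) bases before the start annotated for the promoter. Of the 32 measured genes with an entry in the table, 15 (46.9%) held such a motif, as did 27.1% of the windows of 27025 genes, with 1 window taken per gene. The motif CACCC, bound by Klf1, was present on either strand in 23 of the 32 (71.9%) and in 51.3% of all windows. TGAGTCA, the core of the sequence that the factor containing Nfe2 binds, was present in 2 of the 32 (6.25%) and in 4.43% of all windows. The GATA, CACCC and TGAGTCA motifs have no letters in common that would make a match of one a match of another. A match in these letters is not a measured binding site.

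Other genes of the red cell lineage were read from lists of their own. Of 26 measured further erythroid genes, such as Slc43a1, an amino acid transporter, and Ypel4, 0 passed in limma in any of the 9 comparisons. Their list mean followed the same arrays: relative to the wild-type mean it was 0.86 in Aid-Cre tumour 2 and -1.15 in Aid-Cre tumour 3. In pre-tumour minus wild type 23 of the 26 were lower, by a median of -0.95, and 3 had an unadjusted p below 0.05, as did 5.47% of all genes. Slc43a1 averaged 7.74 in pre-tumour spleens and 9.91 in wild-type spleens, and Ypel4 6.87 in pre-tumour spleens and 8.78 in wild-type spleens. Of 10 globin genes 4 were measured, and none of the adult alpha or beta genes was among them. The globin list mean stayed within -0.47 and 0.47 of wild type in every array, but this list was dim, with array means of 4.38 to 5.32. Hbb-bh1 stayed at 3.66 to 4.58, under the 40th percentile of all gene values (5.03), so the mean says little about globin. Hbq1b, a theta globin, varied most, from 5.76 in pre-tumour 1 to 9.27 in Aid-Cre tumour 2. Cofactors and progenitor genes of the lineage, 17 of 17 measured, had list means between -0.21 and 0.21 of wild type, although single genes of the list varied more widely. Zfpm1, the Gata1 cofactor Fog1, ranged from 6.97 in Mb1-Cre tumour 1 to 10.42 in Mb1-Cre tumour 4. Genes of haem and iron handling outside the list, 26 of 29 measured, had list means between -0.41 and 0.69, and among them Abcg2, a porphyrin exporter, ranged from 4.75 in pre-tumour 1 to 10.20 in Aid-Cre tumour 2. Ackr1, the Duffy antigen, passed the test of spread (limma adjusted p = 0.0448, mean absolute deviation 0.71 in tumours and 0.15 in the other spleens). In these 4 lists 0 genes passed in limma in the 9 comparisons, and those with an unadjusted p below 0.05 numbered 0 of 4 globin genes, at most 5 of 26 further erythroid genes, at most 5 of 17 cofactors and at most 8 of 26 haem and iron genes in any 1 comparison. The share of all genes with such an unadjusted p was between 5.34% and 17.6% over these comparisons.

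Markers of proliferation and of other spleen cells moved with these genes in some arrays and not in others. Proliferation genes (19 of 20 measured) had list means of 0.96, 1.21, -1.46 and -0.89 relative to wild type in Aid-Cre tumours 1 to 4, beside means over the 41 erythroid and haem genes of 0.91, 1.13, -1.78 and -0.82. In Sca1-Cre tumour 4 the proliferation mean was 0.66, on the side above wild type, and the erythroid mean was -1.51. In pre-tumour spleens 1 to 3 the proliferation means were -2.20, -1.06 and -0.69. Neutrophil markers (14 of 14 measured) were at 1.91, 2.01, 1.71, 2.48 and 2.69 in Mb1-Cre tumours 1 to 5. The erythroid means there were -2.08, -0.05, 0.90, 1.28 and 0.99. Between -1.87 and 2.22 in Aid-Cre tumours, the neutrophil mean was high in arrays 1 and 2 and low in arrays 3 and 4, as the erythroid genes were. B cell markers (11 of 12 measured) had list means relative to wild type of -3.63 in Aid-Cre tumour 2 and -1.96 in Mb1-Cre tumour 4 (erythroid means of 1.13 and 1.28), and of -2.21 in Sca1-Cre tumour 3 and -1.43 in Mb1-Cre tumour 1 (erythroid means of -0.10 and -2.08). In pre-tumour spleens the B cell mean stayed between -0.20 and 0.20 of wild type. T cell markers (11 of 12 measured) had list means of 0.79, 0.46 and 0.81 in pre-tumour spleens 1 to 3, against -0.18, 0.50 and -0.33 in wild-type spleens 1 to 3. The part of these other cells in the erythroid values was not tested.

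**Figure D5:**
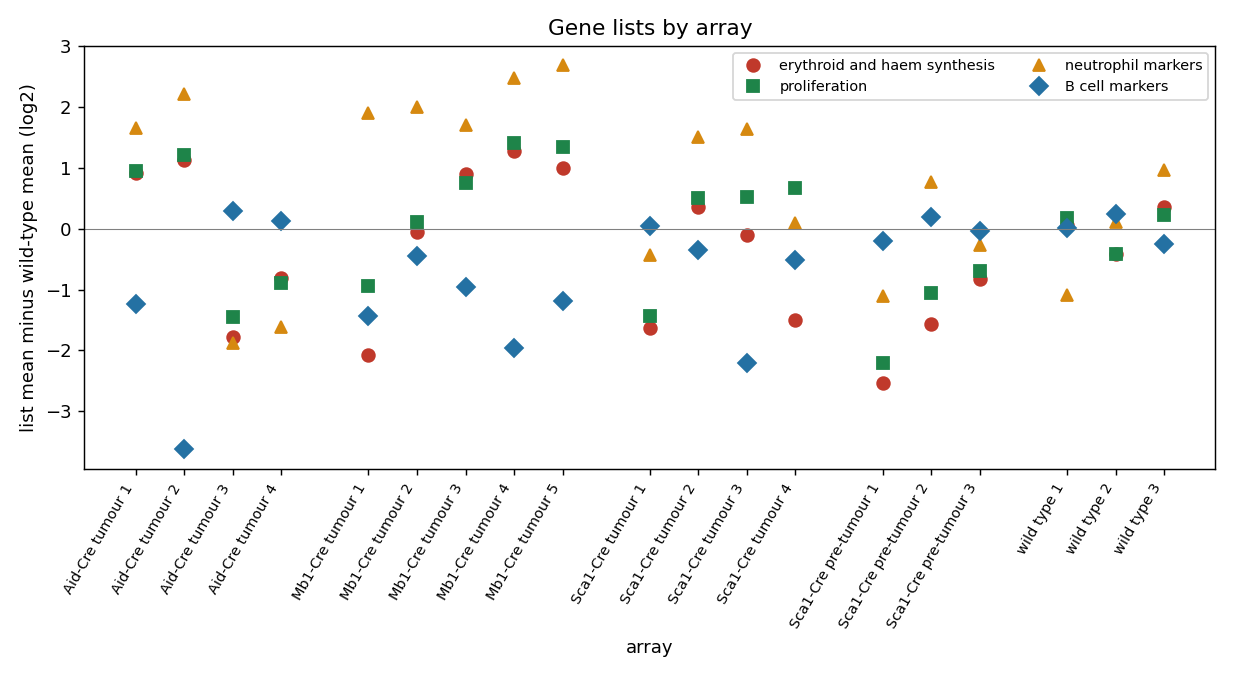
Mean of each gene list minus its wild-type mean (log2) by array, wild type at the right, for the 41 erythroid and haem synthesis genes, 19 proliferation genes, 14 neutrophil markers and 11 B cell markers. Erythroid and proliferation points lie close together in Aid-Cre tumours and apart in Sca1-Cre tumour 4. Neutrophil points are high in every Mb1-Cre tumour, while erythroid points are low in Mb1-Cre tumour 1 and high in Mb1-Cre tumours 3, 4 and 5.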

How the data were processed

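Whole-spleen RNA of 19 mice was measured on Affymetrix arrays, 1 per animal. The authors deposited log2 values for 41345 probe sets, which the submitters' processing notes credit to RMA and to oligo, an R package (versions not given in the sources used here). Gene names came from the platform annotation: 23521 probe sets had 1 symbol, 1814 several and 16010 none. Where a gene had several probe sets of its own, the one with the highest mean stood for it, which left 22180 genes, and 0 columns of the table were left out. No further normalization was applied. RMA brings the arrays' distributions close to each other, so a value is relative to the rest of that array's RNA.

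Group means were fitted over all 19 arrays with limma 3.58.1 in R 4.3.3 (lmFit, eBayes, two-sided, Benjamini-Hochberg over 22180 genes, called at adjusted p under 0.05), with 9 comparisons, a moderated F-test, and the same test on absolute deviations from group means, scaled for group size. The number of arrays limits the precision, and each p-value weighs a difference against the spread between animals within groups. The steps were tested on simulated data. Python 3.11.15, pandas 2.3.3 and matplotlib 3.10.9 did the rest. The members and lists were chosen with earlier results of these data known. Genes named with values in every array were, in each role, the 3 with the highest mean and the 1 with the largest SD over 19 arrays. In each comparison the 3 with the smallest p were named, and in the other lists the called genes and the 2 with the largest SD. No probe set was annotated to the human transgene, so its expression was not checked here. Alternatives were quantile normalization, median centring, a filter on dim genes, the mean of probe sets, trend and robust settings, array weights, the replicate block, sex, the compared groups alone, and leaving out arrays.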

Additional observations from a re-analysis of the deposited data

Results flagged for a closer look

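In Mb1-Cre tumour 1, 8 of the 41 genes had a value so far below the other 4 Mb1-Cre tumours that the gap to the nearest of them exceeded Dixon's critical value. They were Hemgn (6.54, next array 10.14), Alad (7.04, next 9.41), Fech (10.52, next 11.88), Dmtn (5.72, next 8.96), Kel (5.83, next 9.48), Ermap (6.91, next 10.71), Aqp1 (6.36, next 9.72) and Car1 (6.89, next 10.11), all on the log2 scale. Chance alone marks about 1 in 20 such groups. Of the 123 sets of 1 gene in 1 tumour group examined, only these 8 were marked, a share near 1 in 20. The rule was not run on all genes, so the share of all genes marked in this array is not known. The genes are not independent of each other, since they share the array.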

How the results depend on the processing

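No gene of the list passed in the 9 comparisons of means or the F-test under any alternative run. For pre-tumour minus wild type, the alternatives that kept every single array or left out 2 together moved the limma adjusted p widely. It ran from 0.149 to 0.963 for Tspo2, from 0.162 to 0.963 for Trim10 and from 0.153 to 0.963 for Tspan33. For spread, the count of 1 became 2 (Nfe2 and Slc25a38) with the filter on dim genes and 0 with trend and robust settings, and between 0 and 3 when single arrays were left out. Without Mb1-Cre tumour 2 and wild type 2, the arrays with the highest pancreatic list means, the median difference over the genes was -1.9 for pre-tumour, -0.32 for Aid-Cre, 0.11 for Mb1-Cre and -0.38 for all tumours, each minus wild type, and 1 gene passed for spread, which was not Nfe2. Leaving out single arrays moved the median for pre-tumour minus wild type between -2.06 and -1.19. The same removals gave -0.50 to 0.50 for Aid-Cre tumours, -0.01 to 0.81 for Mb1-Cre tumours -1.09 to -0.38 for Sca1-Cre tumours and -0.42 to 0.01 for all tumours, each minus wild type, 0.49 to 1.3 for Sca1-Cre tumour minus pre-tumour, and, between tumours, -0.89 to 0.14 for Aid-Cre minus Mb1-Cre, 0.21 to 1.13 for Aid-Cre minus Sca1-Cre and 0.63 to 1.55 for Mb1-Cre minus Sca1-Cre. Bpgm in Aid-Cre tumours minus wild type was -0.036 without wild type replicate 1, against 0.25 with all arrays and up to 0.52 when other single arrays were left out. Same-numbered arrays had correlations of their deviations of -0.53 to 0.41 over 33 pairs (median -0.05). Arrays of other numbers had -0.67 to 0.61 over 110 pairs (median 0.01). The labels do not say that the numbers pair the animals, and correlations over so few arrays cannot decide it. The replicate block gave medians of -1.64 for pre-tumour, 0.02 for Mb1-Cre, -0.07 for Aid-Cre and -0.27 for all tumours, each minus wild type, with 1 gene passing for spread. Array weights were not run for spread, and the compared groups alone do not apply to the F-test or to spread. The causes were not tested. The number of arrays limits all of these values.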

Other observations

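T cell markers (11 of 12 measured) were higher in mean in pre-tumour than in wild-type spleens in 11 of 11, by a median of 0.67, with 0 passing in limma and 1 at an unadjusted p below 0.05 (0.00451% and 5.47% of all genes). Cd8a, a coreceptor of cytotoxic T cells, averaged 10.02 in pre-tumour spleens and 9.31 in wild-type spleens, and Cd3g, a chain of the T cell receptor complex, 10.81 in pre-tumour spleens and 10.24 in wild-type spleens. Proliferation genes were lower there in 19 of 19, by a median of -1.50, with 0 passing in limma and 1 of 19 at an unadjusted p below 0.05, a share near that of all genes. Birc5, survivin, averaged 5.5 in pre-tumour spleens and 7.54 in wild-type spleens, and Rrm2, a subunit of ribonucleotide reductase, 6.83 in pre-tumour spleens and 8.68 in wild-type spleens.

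Granulocyte genes varied most among the marker lists. Ly6g, a neutrophil surface antigen, averaged 10.29 in Mb1-Cre tumours and 6.65 in wild type, and Camp, a granule peptide, 11.03 in Mb1-Cre tumours and 8.35 in wild type. Mcpt8, a basophil protease, ranged from 4.30 in wild type 1 to 9.26 in Sca1-Cre tumour 3, and Cpa3, a mast cell protease, from 4.88 in Aid-Cre tumour 4 to 9.15 in Sca1-Cre tumour 3. The B cell genes Cr2 and Fcer2a were lowest in Aid-Cre tumour 2 (4.78 and 5.83) and highest in Aid-Cre tumour 3 (11.47 and 11.27). Among macrophage genes, C1qb averaged 9.31 in Mb1-Cre tumours and 7.94 in wild type, and Cd5l 7.23 in Mb1-Cre tumours and 5.99 in wild type. The platelet genes Ppbp and Thbs1 were highest in Mb1-Cre tumour 1 (10.91 and 8.73). Erg and Cd34, of stem and progenitor cells, averaged 7.28 and 5.67 in Mb1-Cre tumours and 5.47 and 5.0 in wild type. In Mb1-Cre tumours minus wild type, 0 of 14 neutrophil, 0 of 13 macrophage and 0 of 12 stem and progenitor markers passed in limma. There 10, 4 and 5 of them had an unadjusted p below 0.05, and of all genes 0% passed and 11.3% had such an unadjusted p. The endothelial genes Plvap and Cdh5 (8.63 and 8.59) and the pancreatic genes Cpb1 and Cel (8.39 and 9.0) were highest in Mb1-Cre tumour 2. Of the remaining genes with the largest SD in their lists, Hbb-bh1, an embryonic globin, ranged from 3.66 to 4.58, Foxo3, a transcription factor of erythroid maturation, from 6.84 to 8.94, and Hp, haptoglobin, from 7.37 to 11.29.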
